A study of Homo sapiens with 6 samples.

Results

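HOX genes were compared across 6 arrays of the human glioma line U87MG and its derivatives U87MGR and U87MGL. Members were all genes whose platform symbol was HOXA, HOXB, HOXC or HOXD followed by a number only, which gave 28 genes on 44 probe sets, of 19775 genes on the array. They comprised 1 HOXA gene (HOXA2), 10 HOXB genes, 9 HOXC genes and 8 HOXD genes, of 39 protein-coding HOX genes in RefSeq. The other HOXA genes and HOXD3 were not analysed here. Each gene was represented by its brightest probe set, the one with the highest mean over the 6 arrays, and was tested if that mean reached a log2 signal of 4.73, the 40th percentile of all probe sets. Of the 28 HOX genes, 20 passed this filter.

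U87MGR is labelled highly invasive and U87MGL non-invasive, and both were raised from U87MG by 4 rounds of injection into the left striatum of BALB/c nude mice, with tumour cells brought back into culture after each round. U87MG is the parental line, grown like the others in DMEM with fetal bovine serum. Each group had 2 arrays. In both derivatives the 2 arrays came from cells that the titles number 2 and 3, so the spread within these groups includes any difference between these cells, and the p-values measure only the spread between the samples at hand. A difference between a derivative and U87MG cannot be told apart from the passage through mouse brain and repeated culture that both derivatives share.

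HOX genes encode homeodomain transcription factors that give cells a position along the head-to-tail axis of the embryo. They lie in 4 clusters, in which genes of low paralog number act anteriorly and genes of high number posteriorly. Their proteins bind DNA together with TALE cofactors of the PBX and MEIS families, and Polycomb and trithorax complexes keep the clusters silent or active. Forebrain and its glia normally express little HOX, whereas several HOX genes are expressed in glioblastoma and glioblastoma lines.

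The median log2 signal of an array lay between 5.29 and 5.35. Spiked-in controls, which carry no cellular RNA, gave 3 patterns: U87MGR replicate 1 shared its pattern with both U87MGL arrays, U87MGR replicate 2 shared its pattern with U87MG replicate 1, and U87MG replicate 2 stood alone. No U87MGL array thus shared a pattern with a U87MG array. A direct difference between these 2 groups cannot be told apart from one that goes with the pattern. With 2 or 3 patterns as a block, no gene at all was called for U87MGL against U87MG. Of 10 glioma and U87 lineage markers 8 were tested, and S100B and OLIG1 lay below the filter. VIM, an intermediate filament gene of mesenchymal and glial cells, had log2 signals of 14.3 to 14.5 on all 6 arrays, and GFAP, the astrocyte filament gene, 5.21 to 5.45. CHI3L1, a secreted glycoprotein gene of mesenchymal glioma, was lower than in U87MG in both derivatives, by log2 differences of -3.05 in U87MGR (limma adjusted p = 0.0185) and -4.13 in U87MGL (limma adjusted p = 0.00795). The U87MGR call was lost without U87MGR replicate 1 (-3.23, limma adjusted p = 0.1) or replicate 2 (-2.87, adjusted p = 0.146), and spike-in patterns as a block ended both calls. FN1 and NES gave -0.61 and 1.18 in U87MGR and -0.82 and 1.14 in U87MGL against U87MG, without passing.

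No tested marker of microglia and blood (4 genes), endothelium (5), neurons (4) or oligodendrocytes (2) was called in any comparison. Of all tested genes, 0.158% were called between the derivatives. Relative to U87MG, 3.3% were called in U87MGR and 4.82% in U87MGL. At these shares lists of 2 to 5 genes are too short, so nothing is read from the lack of calls. Over the 6 arrays the mean log2 signal of the list lay between 4.80 and 5.16 for microglia and blood, 5.19 and 5.61 for endothelium, 6.11 and 6.46 for neurons and 5.55 and 5.84 for oligodendrocytes. The brightest members were SNAP25 (9.21 to 9.73) and CNP (9.70 to 10.05), with CSF1R at 7.31 to 7.85 and SYT1 at 6.48 to 7.53, whereas CX3CR1, P2RY12, PTPRC, TYROBP, CDH5, NEFL, MOG, MAG and MOBP lay below the filter. The largest difference among them was that of TMEM119, -1.77 for U87MGR against U87MG (limma adjusted p = 0.102).

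HOXB6 was the only HOX gene called in any comparison: its signal was high in both U87MGL arrays and below the filter in all 4 others, so that it entered the test only through U87MGL. In the remaining 19 tested HOX genes no pair of groups differed by more than 0.76 log2 units on the brightest probe set. The second probe set of HOXD13 differed by more, at -1.02 for U87MGR against U87MG. The plot of array values shows most members at close to one level in the 3 groups.

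**Figure D1:**
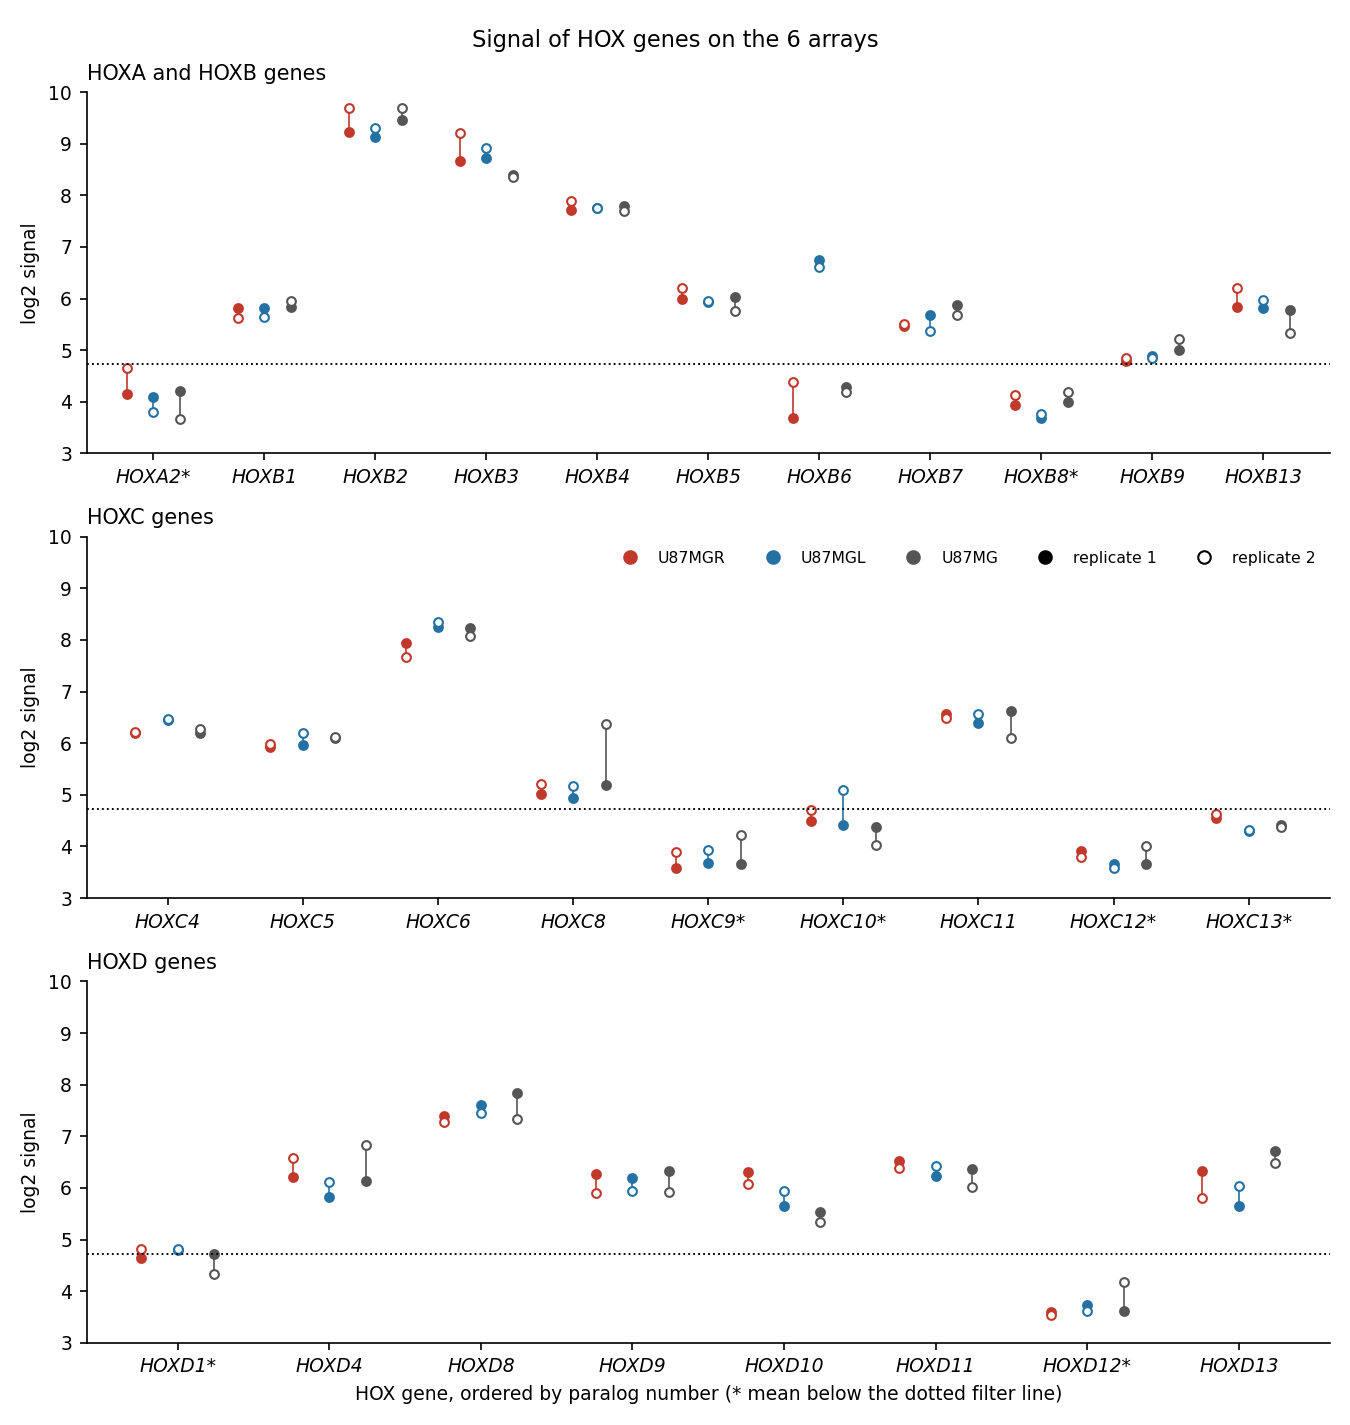
Log2 signal (vertical axes) of the 28 HOX genes by paralog number (horizontal axes), with filled circles for replicate 1, open circles for replicate 2 and a line joining them, in U87MGR (red), U87MGL (blue) and U87MG (grey). The dotted line is the filter at 4.73, and HOXB6 in U87MGL, at 6.75 and 6.60, is the clear exception to groups lying close together.

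For U87MGR against U87MGL, the question was whether the invasive derivative differed in HOX expression from the non-invasive one. Of the 20 tested HOX genes, none was higher and 1, or 5%, was lower by limma at an adjusted p under 0.05. This was HOXB6, which passed the filter only through its U87MGL signals, so nothing is read from the count. In the fit without the filter HOXB6 was called as well (limma adjusted p = 0.0129), still on U87MGR signals below 4.73. Of all 14513 tested genes, 0.158% were called in this comparison, 0.0413% higher and 0.117% lower. Before adjustment, at a p under 0.05, 2 HOX genes were lower and none higher, beside a background of 4.94% lower, 3.91% higher and 8.85% in all. The arrays of the groups did not overlap in 3 HOX genes that were higher and 5 that were lower (15% and 25%), against 23.3% and 23.3% of all genes. Only 1 HOX gene, or 5%, had a fitted log2 difference beyond 0.5 either way, against 9.88% of all genes. The 95% interval of the log2 difference lay within 1 unit either way for 18 of the 20 genes, against 86.2% of all genes. The median log2 difference was 0.05 over the HOXB genes, -0.13 over the HOXC genes and 0.17 over the HOXD genes, against 0.00 over all genes.

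For U87MGR against U87MG, no HOX gene was called by limma at an adjusted p under 0.05, while 3.3% of all genes were, 1.86% higher and 1.44% lower. Before adjustment, at a p under 0.05, 2 HOX genes were higher and none lower, beside 11% higher, 9.78% lower and 20.8% in all. The groups did not overlap in 4 HOX genes that were higher and 6 that were lower (20% and 30%), against 24.2% and 24.2% of all genes. Fitted log2 differences beyond 0.5 either way were found for 4 HOX genes, or 20% of those tested, against 20.7% of all genes. The 95% interval lay within 1 unit either way for 16 of the 20 (80%), against 76.8% of all genes. The median log2 difference was -0.12 for HOXB, -0.16 for HOXC and -0.07 for HOXD, against -0.01 over all genes.

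For U87MGL against U87MG, 1 HOX gene (5%), again HOXB6, was called higher by limma at an adjusted p under 0.05 and none lower, while 4.82% of all genes were called, 3.02% higher and 1.8% lower. Before adjustment, at a p under 0.05, 1 HOX gene was higher and 1 lower, beside 13.2% higher, 10.1% lower and 23.3% in all. The groups did not overlap in 6 HOX genes that were higher and 6 that were lower (30% each), against 28.1% and 28.3% of all genes. Fitted log2 differences beyond 0.5 were found for 4 HOX genes (20%), against 22.6% of all genes, and the 95% interval lay within 1 unit for 16 (80%), against 75.4%. The median log2 difference was 0.01 for HOXB, 0.12 for HOXC and -0.06 for HOXD, against -0.02 over all genes. The last 2 comparisons share the U87MG arrays. Across the 3 comparisons the median size of a HOX difference, 0.13, 0.23 and 0.23 log2 units in the order given here, lay near the 0.17, 0.23 and 0.25 of all tested genes.

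**Figure D2:**
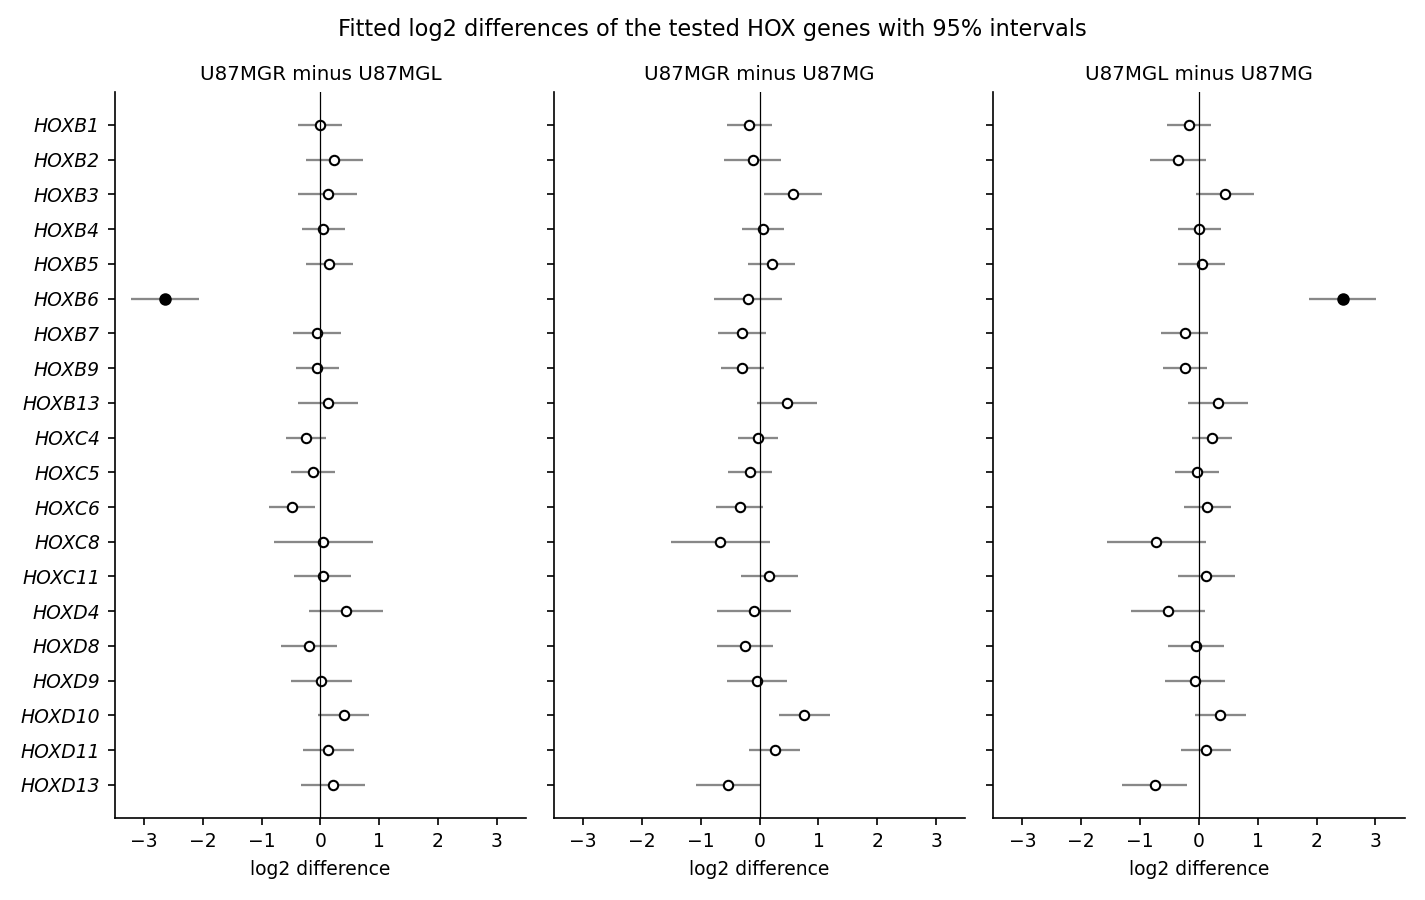
Fitted log2 difference (horizontal axes) with its 95% interval for the 20 tested HOX genes (vertical axis) in U87MGR minus U87MGL, U87MGR minus U87MG and U87MGL minus U87MG. Filled points passed an adjusted p of 0.05 by limma, which only HOXB6 did, at -2.64 and 2.44, sizes that rest on signals below the filter in U87MGR and U87MG; most other intervals cross 0.

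HOXB6, a central member of the HOXB cluster known in the mouse for its expression in the posterior body and in early blood precursors, had log2 signals of 3.68 and 4.39 in U87MGR, 6.75 and 6.60 in U87MGL, and 4.28 and 4.19 in U87MG. Both U87MGL arrays lay more than 2 log2 units above all the others, and the U87MGR arrays spanned those of U87MG. Group means were 4.03 ± 0.51 in U87MGR, 6.68 ± 0.11 in U87MGL and 4.23 ± 0.06 in U87MG (SD, n = 2 each). With the dim arrays set to the filter value of 4.73, HOXB6 was at least 3.86-fold lower in U87MGR than in U87MGL (limma adjusted p of the fit to the signals as deposited = 0.0142). With the dim arrays still at the filter value, it was at least 3.86-fold higher in U87MGL than in U87MG (limma adjusted p of the fit to the signals as deposited = 0.00826). Neither p is a test of the bound, and HOXB6 entered the test only through U87MGL. Both bounds depend on the filter value, which is a percentile of all probe sets and not a detection limit. The 95th percentile of the means of 82 olfactory receptor genes, used as the stricter filter, was 5.45 and would give smaller bounds. No fold is given between U87MGR and U87MG, which were both below the filter.

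The differences as deposited, -2.64 log2 units for U87MGR against U87MGL and 2.44 for U87MGL against U87MG, have no defined size beyond that bound. The mean of HOXB6 over the 6 arrays, 4.98, passed the filter only through U87MGL, and its U87MGR and U87MG arrays lie below 4.73, where a faint transcript and none at all cannot be told apart. In the signals as deposited, between the arrays that shared a spike-in pattern, U87MGR replicate 1 and both U87MGL arrays, the log2 difference was -3.00. The call against U87MGL was lost without U87MGR replicate 1 (log2 difference -2.28, limma adjusted p = 0.0691), without U87MGL replicate 1 (-2.57, adjusted p = 0.11) and without U87MGL replicate 2 (-2.72, adjusted p = 0.0599). The call of U87MGL against U87MG was lost without U87MGL replicate 2 (2.52, limma adjusted p = 0.0531). With the 3 spike-in patterns as a block, a fit to which U87MG replicate 2 adds nothing since it is alone in its pattern, neither call held (-3.00, limma adjusted p = 0.0601, and 3.11, adjusted p = 0.0936).

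**Figure D3:**
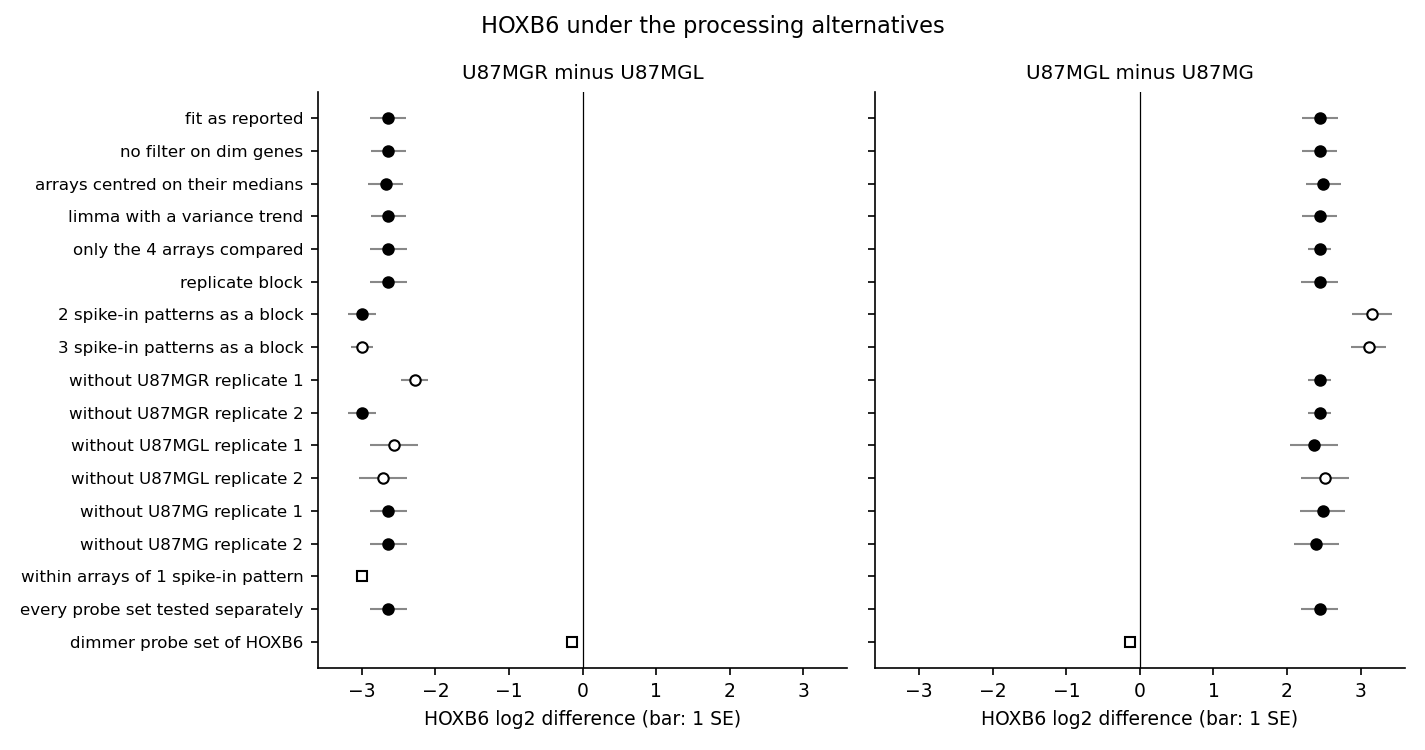
Log2 difference of HOXB6 (horizontal axes, bars of 1 SE) under each way of processing (vertical axis), for U87MGR minus U87MGL and U87MGL minus U87MG. Filled circles passed an adjusted p of 0.05, open circles did not and squares have no test; all circles lie between -3.00 and -2.28 on the left and between 2.37 and 3.16 on the right, while the dimmer probe set lies at -0.15 and -0.14.

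A second probe set of HOXB6 did not show the pattern. The dimmer probe set had log2 signals of 3.58 and 3.75 in U87MGR, 3.82 and 3.81 in U87MGL, and 3.67 and 4.24 in U87MG, below the filter on every array. U87MGL lay between the other groups there, with log2 differences of -0.15 for U87MGR against U87MGL and -0.14 for U87MGL against U87MG. The brighter probe set has the suffix _s_at, which the manufacturer gives to probe sets that can match more than 1 transcript. Its signal was not traced here to a particular transcript. In RefSeq the only gene overlapping HOXB6 is HOXB-AS3, an antisense RNA, whose brightest probe set had log2 signals of 5.20 and 5.29 in U87MGR, 5.25 and 5.05 in U87MGL, and 5.42 and 4.81 in U87MG. The groups overlapped there. Of its 4 dimmer probe sets, all with means below the filter, 2 had U87MGR below U87MGL without overlap, by -0.25 and -0.095 log2 units. Another had U87MGR above U87MGL without overlap, by 0.039. In all of these the U87MG arrays lay on both sides of those of U87MGL.

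**Figure D4:**
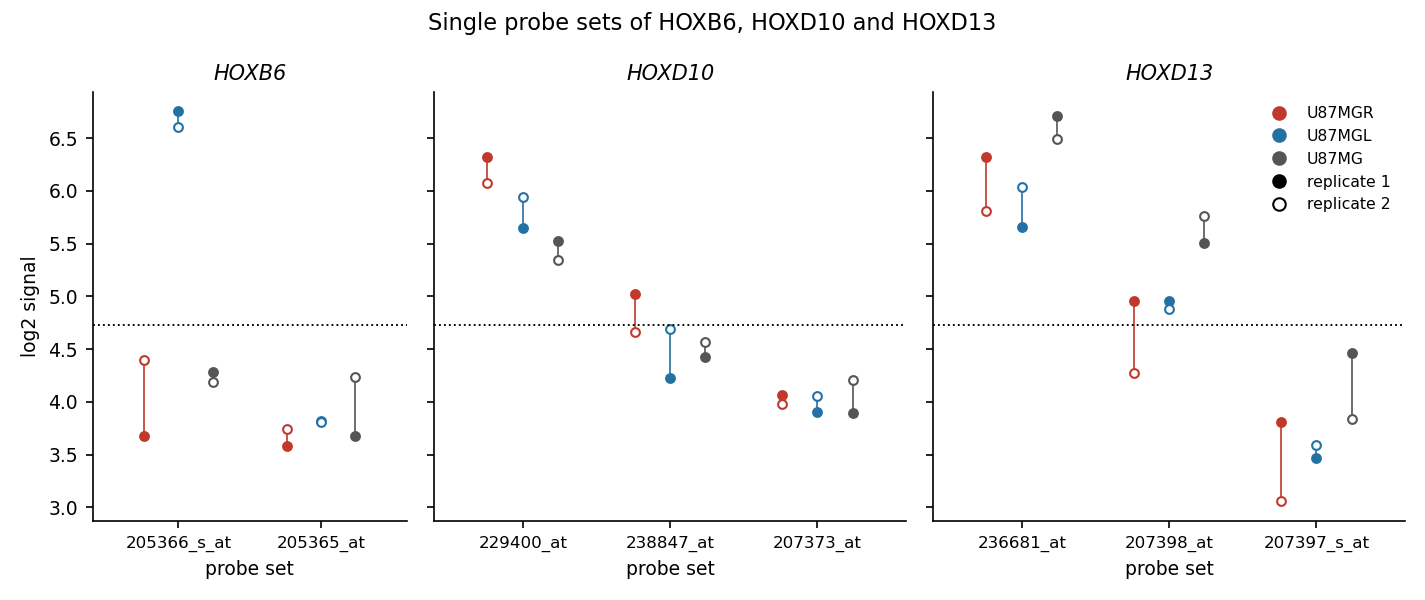
Log2 signal (vertical axis) of every probe set of HOXB6, HOXD10 and HOXD13 (horizontal axes), with the replicates of each group as filled and open circles in U87MGR, U87MGL and U87MG. The dotted line is the filter at 4.73; only the brighter HOXB6 probe set is high in U87MGL, and all 3 HOXD13 probe sets have their highest value in U87MG.

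The neighbours of HOXB6 in its cluster were tested on their brightest probe sets, and neither was called. HOXB5, the next gene towards the anterior end, had log2 signals of 6.00 and 6.19 in U87MGR, 5.93 and 5.96 in U87MGL, and 6.03 and 5.76 in U87MG. HOXB7, the next gene towards the posterior end, had log2 signals of 5.46 and 5.50 in U87MGR, 5.68 and 5.38 in U87MGL, and 5.87 and 5.68 in U87MG. On these probe sets U87MGL did not stand above both other groups in either gene. The other 2 probe sets of HOXB7 had U87MGR below U87MGL without overlap, by -0.52 and -0.35, and U87MGL below the mean of U87MG, by -0.08 and -0.37. All 3 probe sets of HOXB7 were lower in U87MGR than in U87MG, by log2 differences of -0.29, -0.61 and -0.72.

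HOXB2, which patterns the hindbrain, had log2 signals of 9.22 and 9.68 in U87MGR, 9.13 and 9.30 in U87MGL, and 9.46 and 9.69 in U87MG. HOXB4, known for expanding blood stem cells when overexpressed, had 7.72 and 7.89 in U87MGR, 7.76 and 7.74 in U87MGL, and 7.79 and 7.70 in U87MG. The groups overlapped in HOXB4, and in HOXB2 only U87MGL lay apart from U87MG. HOXB3, a hindbrain gene that overlaps HOXB4 in RefSeq, had log2 signals of 8.67 and 9.21 in U87MGR, 8.72 and 8.91 in U87MGL, and 8.39 and 8.35 in U87MG. Every array of both derivatives was above both U87MG arrays, by a log2 difference of 0.57 in U87MGR (SE 0.21, limma adjusted p = 0.187) and 0.45 in U87MGL (limma adjusted p = 0.255). Its second probe set gave differences from U87MG of -0.08 in U87MGR and -0.30 in U87MGL, opposite in sign.

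Among the remaining HOXB genes, HOXB1, the most anterior of the cluster, kept to 5.63 and 5.81 in U87MGR, 5.65 and 5.81 in U87MGL, and 5.84 and 5.95 in U87MG. HOXB9, a posterior gene, lay just above the filter at 4.78 and 4.85 in U87MGR, 4.89 and 4.86 in U87MGL, and 5.01 and 5.21 in U87MG. HOXB9 lay below the stricter filter of 5.45 on all 6 arrays. Its U87MG arrays were the highest, and it was not called. HOXB13, the most posterior gene of the cluster and a known prostate lineage factor, had 5.83 and 6.21 in U87MGR, 5.81 and 5.97 in U87MGL, and 5.79 and 5.34 in U87MG. Its 2 probe sets differed in sign between U87MGR and U87MG, at log2 differences of 0.46 and -0.46.

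In the HOXC cluster, which in RefSeq has HOXC4, HOXC5 and HOXC6 overlapping one another, HOXC6 gave the largest difference between the derivatives. HOXC6, a gene of the thoracic region, had log2 signals of 7.95 and 7.68 in U87MGR, 8.25 and 8.35 in U87MGL, and 8.23 and 8.08 in U87MG. Both U87MGR arrays lay below the 4 others. The log2 difference of U87MGR from U87MGL was -0.49 (SE 0.17, unadjusted p = 0.0229, limma adjusted p = 0.453) and from U87MG -0.34 (limma adjusted p = 0.304), so neither passed.

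HOXC4 had log2 signals of 6.20 and 6.22 in U87MGR, 6.46 and 6.46 in U87MGL, and 6.20 and 6.28 in U87MG. U87MGL was the highest group by a small margin, with its arrays apart from both others, and HOXC4 was not called. HOXC5 stayed between 5.93 and 6.20 on all 6 arrays. HOXC11, a posterior gene that overlaps the noncoding RNA HOTAIR in RefSeq, stayed between 6.10 and 6.62, with the lowest and the highest value both in U87MG.

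HOXC8, a thoracic patterning gene, had log2 signals of 5.02 and 5.21 in U87MGR, 4.94 and 5.18 in U87MGL, and 5.19 and 6.37 in U87MG. Its mean over the 6 arrays, 5.32, lay below the stricter filter of 5.45. The single high array was U87MG replicate 2, the one with a spike-in pattern of its own. The log2 difference from U87MG was -0.67 in U87MGR (SE 0.36, limma adjusted p = 0.342) and -0.72 in U87MGL (limma adjusted p = 0.276). Without U87MG replicate 2 these were -0.07 and -0.13. Without U87MG replicate 1 they were -1.26 (limma adjusted p = 0.0298) and -1.32 (limma adjusted p = 0.0197), so that array alone decides the value.

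In the HOXD cluster no gene was called, and on the brightest probe sets the largest differences from U87MG were those of HOXD10 and HOXD13. HOXD10, a limb and lumbar spinal cord patterning gene known in glioma work as a target of miR-10b, had log2 signals of 6.32 and 6.07 in U87MGR, 5.65 and 5.94 in U87MGL, and 5.53 and 5.34 in U87MG. The groups did not overlap, with U87MGR the highest and U87MG the lowest. HOXD10 was 1.69-fold above U87MG in U87MGR (log2 difference 0.76, SE 0.18, unadjusted p = 0.00428), a difference that missed the threshold (limma adjusted p = 0.0743). The log2 difference was 0.40 for U87MGR against U87MGL (limma adjusted p = 0.598) and 0.36 for U87MGL against U87MG (limma adjusted p = 0.287). Its 2 dimmer probe sets lay near or below the filter and gave 0.35 and -0.03 for U87MGR against U87MG, and -0.04 and -0.07 for U87MGL against U87MG. With the mean of all probe sets, HOXD10 differed by 0.36 between U87MGR and U87MG (limma adjusted p = 0.26) and by 0.085 between U87MGL and U87MG.

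HOXD13, the most posterior gene of the cluster, which patterns digits and the genital tract, had log2 signals of 6.32 and 5.80 in U87MGR, 5.66 and 6.04 in U87MGL, and 6.71 and 6.49 in U87MG. Both U87MG arrays were above all 4 derivative arrays, whose groups overlapped. The log2 difference from U87MG was -0.54 in U87MGR (limma adjusted p = 0.246) and -0.75 in U87MGL (SE 0.23, unadjusted p = 0.0137, limma adjusted p = 0.115). A second probe set had 4.95 and 4.28 in U87MGR, 4.96 and 4.88 in U87MGL, and 5.50 and 5.76 in U87MG. It placed U87MG highest too, at log2 differences from U87MG of -1.02 in U87MGR and -0.71 in U87MGL, and, tested on its own, it did not pass (limma adjusted p = 0.0992 and 0.168).

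The 250 bases before the start of HOXD13 and of HOXD10, the HOXD genes with the largest differences from U87MG on their brightest probe sets, neither of them called, are shown for comparison, from RefSeq on GRCh38.p14, with every CG in capitals. The HOXD13 window is chr2:176092471-176092720 and the HOXD10 window is chr2:176116528-176116777, both on the plus strand.
HOXD13: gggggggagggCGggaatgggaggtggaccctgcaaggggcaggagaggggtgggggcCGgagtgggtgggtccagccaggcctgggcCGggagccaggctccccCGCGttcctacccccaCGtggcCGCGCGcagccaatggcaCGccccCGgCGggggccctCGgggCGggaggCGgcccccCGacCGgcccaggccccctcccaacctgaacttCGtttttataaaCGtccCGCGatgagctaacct
HOXD10: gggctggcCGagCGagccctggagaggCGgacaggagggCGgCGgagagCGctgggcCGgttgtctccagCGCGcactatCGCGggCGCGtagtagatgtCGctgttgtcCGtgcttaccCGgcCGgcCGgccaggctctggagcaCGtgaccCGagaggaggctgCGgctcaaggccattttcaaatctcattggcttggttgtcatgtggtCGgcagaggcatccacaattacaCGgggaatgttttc
HOXD13 has 21 CG pairs and HOXD10 has 23, as many as or more than which are held by 30.2% and 25.8% of 35116 promoter windows of this length, whose median is 11. The letters TATAAA begin 27 bases before the start on the plus strand of HOXD13, and an overlapping match on the minus strand reads TTTATA on the plus strand, from 29 bases before the start. HOXD10 has neither, and 10.7% of all windows hold TATAAA on either strand. The letters TGATTNAT, a site type bound by HOX and PBX proteins together, were in neither window on either strand, and 2.48% of all windows hold them. No measurement of these windows was made in this study.

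HOXD4, which patterns the hindbrain and neck, had log2 signals of 6.21 and 6.58 in U87MGR, 5.82 and 6.12 in U87MGL, and 6.14 and 6.84 in U87MG. U87MGL was the lowest group, without overlap, and U87MGR lay within the range of U87MG. The log2 difference was 0.43 for U87MGR against U87MGL (SE 0.27, limma adjusted p = 0.694) and -0.52 for U87MGL against U87MG (limma adjusted p = 0.292). None of HOXD8, HOXD9 and HOXD11 was called, although HOXD8 was lower in U87MGR than in U87MGL, and HOXD11 higher in U87MGR than in U87MG, without overlap. HOXD8 stayed between 7.27 and 7.83, HOXD9 between 5.89 and 6.34 and HOXD11 between 6.03 and 6.52 over the 6 arrays. These are the brightest probe sets. The second probe set of HOXD9 had 4.74 and 4.93 in U87MGR, 4.98 and 4.80 in U87MGL, and 5.21 and 5.64 in U87MG. There both derivatives lay below U87MG without overlap, by log2 differences of -0.59 in U87MGR and -0.53 in U87MGL.

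The 8 HOX genes below the filter were HOXA2, HOXB8, HOXC9, HOXC10, HOXC12, HOXC13, HOXD1 and HOXD12. HOXD1 was the closest to it, with log2 signals of 4.65 and 4.82 in U87MGR, 4.80 and 4.82 in U87MGL, and 4.71 and 4.33 in U87MG. HOXA2, a hindbrain gene and the only HOXA member here, had 4.15 and 4.64 in U87MGR, 4.09 and 3.80 in U87MGL, and 4.21 and 3.66 in U87MG. HOXC10 reached 5.09 on U87MGL replicate 2 and stayed between 4.02 and 4.70 on the other 5 arrays. When all 28 genes entered the fit without the filter, none of these 8 was called by limma.

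Genes that act with or upon the HOX clusters were examined through lists. Of 8 tested TALE cofactors, 1 (12.5%) was called higher in U87MGL than in U87MG, against 3.02% of all genes, and none in the other comparisons. This was PBX3, a DNA-binding partner of HOX proteins, with log2 signals of 9.03 and 8.97 in U87MGR, 9.81 and 9.62 in U87MGL, and 8.27 and 8.63 in U87MG. Like HOXB6, PBX3 was highest in both U87MGL arrays, but here U87MGR lay between the other groups without overlap. PBX3 was 2.41-fold higher in U87MGL than in U87MG (log2 difference 1.27, limma adjusted p = 0.0187). Its log2 difference was -0.72 for U87MGR against U87MGL (limma adjusted p = 0.276) and 0.55 for U87MGR against U87MG (limma adjusted p = 0.151). The U87MGL call was lost without U87MGL replicate 1 (log2 difference 1.17, limma adjusted p = 0.105), without U87MGL replicate 2 (1.36, adjusted p = 0.106) and without either U87MGR replicate (1.27, adjusted p = 0.0535). It was also lost with 2 spike-in patterns (1.20, limma adjusted p = 0.448) or 3 (1.38, adjusted p = 0.154) as a block, fits in which no gene at all was called for U87MGL against U87MG.

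Of 23 tested Polycomb group genes, 1 (4.35%) was called higher in U87MGR than in U87MG, against 1.86% of all genes, and 2 (8.7%) in U87MGL than in U87MG, against 3.02%. None was called between the derivatives. EZH2, the enzyme that methylates histone H3 at lysine 27, had log2 signals of 9.20 and 9.21 in U87MGR, 9.30 and 9.47 in U87MGL, and 8.65 and 8.29 in U87MG. Every derivative array was above both U87MG arrays, by a log2 difference of 0.73 in U87MGR, which did not pass, and 0.92 in U87MGL (limma adjusted p = 0.0377). MTF2, a partner of the same complex, had 8.01 and 7.86 in U87MGR, 7.98 and 8.31 in U87MGL, and 7.09 and 6.65 in U87MG. It was above U87MG by a log2 difference of 1.06 in U87MGR (limma adjusted p = 0.0477) and 1.28 in U87MGL (limma adjusted p = 0.0252). Its other probe sets above the filter gave 1.37 and 0.75 for U87MGR and 1.44 and 0.61 for U87MGL. Tested separately, the first passed for both (limma adjusted p = 0.0427 and 0.0304) and the second for neither (0.131 and 0.166). The brightest then passed only for U87MGL (limma adjusted p = 0.0696 for U87MGR and 0.0396 for U87MGL). The calls of EZH2 and MTF2 were close to the threshold. Counting equal fits once, that of EZH2 in U87MGL held in 6 of 14 alternative fits, and those of MTF2 in 3 of 13 for U87MGR and 7 of 14 for U87MGL; the spike-in patterns as a block ended all of them. The replicate block ended those of EZH2 in U87MGL (limma adjusted p = 0.0552) and MTF2 in U87MGR (adjusted p = 0.0669). Leaving out any single array other than U87MG replicate 1 ended all 3, with limma adjusted p of 0.0797 to 0.264 for EZH2 in U87MGL, 0.0771 to 0.201 for MTF2 in U87MGR and 0.0621 to 0.176 for MTF2 in U87MGL.

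Of 23 tested genes that flank the HOX clusters, 1 (4.35%) was called higher in each derivative than in U87MG, where 1.86% of all genes were called higher in U87MGR and 3.02% in U87MGL. It was LNPK, an endoplasmic reticulum protein gene beside the HOXD cluster, with log2 signals of 9.72 and 9.39 in U87MGR, 9.99 and 10.12 in U87MGL, and 8.67 and 8.37 in U87MG. On this, its brightest probe set, the derivative arrays all lay above U87MG, by a log2 difference of 1.04 in U87MGR (limma adjusted p = 0.0386) and 1.54 in U87MGL (limma adjusted p = 0.0135). Its other 2 probe sets gave 0.10 and 0.47 for U87MGR and 1.03 and 0.93 for U87MGL. For U87MGR the call was lost with the mean of all probe sets (0.54, limma adjusted p = 0.118), with the replicate block (1.04, adjusted p = 0.0507) and with 2 or 3 spike-in patterns as a block (0.87 and 0.72, adjusted p = 0.159 and 0.108). For U87MGL it was lost with 2 or 3 patterns (1.20 and 1.06, limma adjusted p = 0.412 and 0.188). Leaving out any single array other than U87MG replicate 1 ended the U87MGR call (limma adjusted p of 0.0787 to 0.159), and the U87MGL call was lost without U87MGL replicate 1 (1.60, adjusted p = 0.0548) or replicate 2 (1.47, adjusted p = 0.101). Counting equal fits once, it held in 5 of 13 alternatives for U87MGR and 10 of 14 for U87MGL. No member was called in any comparison among 13 tested trithorax and histone demethylase genes, 12 tested retinoic acid pathway genes, 7 tested CDX, ParaHox and EVX genes and 8 tested noncoding RNAs of the clusters. Of all genes, 0.158%, 3.3% and 4.82% were called in the 3 comparisons, so nothing is read from these counts. The trithorax list had median log2 differences from U87MG of 0.38 in U87MGR and 0.39 in U87MGL, against -0.01 and -0.02 over all genes. For the retinoic acid, CDX and noncoding lists the medians were 0.10, -0.16 and 0.07 in U87MGR. In U87MGL they were -0.10, -0.30 and -0.08. Both derivatives were set against the same U87MG arrays, and no test was made of these medians. The retinoic acid list ranged from -1.38 to 1.64 for U87MGR against U87MGL.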

How the data were processed

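Total RNA from 6 cell samples was measured on single-colour oligonucleotide arrays, 1 array per sample and 2 arrays per group. The authors deposited log2 signals of 54675 probe sets, between 2.38 and 14.6. The normalization, software and any scanner values are not given in the sources used here, and no further normalization was applied. Detection calls were not used here.

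Of the probe sets, 41097 carried 1 symbol, 1801 several and 11777 none, and only the first kind was used. One limma model (version 3.58.1, R 4.3.3) with a mean per group was fitted to 14513 genes over the 6 arrays, with 3 residual and 4.05 prior degrees of freedom. P-values were two-sided and adjusted by Benjamini-Hochberg over all tested genes, and a gene was called below 0.05. Precision is limited by the number of arrays, and the median SE of a log2 difference was 0.189. The pipeline was tested on simulated data.

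Described with fold changes were called members and, per cluster and comparison, the largest difference. Others are given by level. Differences are also given for HOXB7, HOXB13 and HOXD9 where their probe sets are compared, a choice made after their values were seen. The members, the lists (textbook knowledge) and the rules were chosen with earlier results of these data known. Replicate numbers were not treated as pairs, since same-numbered arrays correlated by only 0.01 (U87MGR and U87MGL), 0.11 (U87MGR and U87MG) and -0.09 (U87MGL and U87MG) after group means were removed. Alternatives changed the filter, the probe set rule, the centring, the variance model, the blocks and the arrays included; testing every probe set separately and the dimmer HOXB6 probe set were added after seeing the data. Promoter windows came from RefSeq (GRCh38.p14), where 11 of the 28 members matched.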

Additional observations from a re-analysis of the deposited data

Results flagged for a closer look

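HOXB6 was flagged because, on its brighter probe set, its difference from U87MG was not the same in the derivatives. In the signals as deposited, U87MGR minus U87MGL was -2.64 log2 units (limma adjusted p = 0.0142), a size that rests on U87MGR signals below the filter, through which HOXB6 came only by U87MGL. With the dim arrays set to the filter value, which is not a detection limit, U87MGR was at least 3.86-fold lower. Both U87MGR arrays lay below both U87MGL arrays. The difference rests on 1 probe set, and the dimmer probe set of HOXB6 gave -0.15. The call was lost without U87MGR replicate 1, without either U87MGL replicate and with the 3 spike-in patterns as a block. Groups of 2 arrays are too small for a test of single outlying samples.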

How the results depend on the processing

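The number of arrays limits every comparison, and signals near or below 4.73 cannot be told from background. Counting equal fits once, HOXB6 passed the threshold in 7 of 11 alternative fits that tested it for U87MGR against U87MGL. For U87MGL against U87MG it passed in 9 of 12. These fits include the test of every probe set separately, added after seeing the data. They leave out the stricter filter (5.45) and the mean of all probe sets, where HOXB6 is untested by construction. The dimmer probe set was not tested either. The cause of the lost calls was not tested.

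The count of called HOX genes for U87MGR against U87MGL was 0 with the stricter filter, with the mean of all probe sets and with the 3 spike-in patterns as a block (HOXB6 -3.00), and 0 to 1 when single arrays were left out. For U87MGR against U87MG it was 0 to 1 when single arrays were left out. For U87MGL against U87MG it was 0 with the stricter filter, with the mean of all probe sets, and with the 2 patterns (HOXB6 3.16, limma adjusted p = 0.125) and the 3 patterns (HOXB6 3.11) as a block, and 0 to 2 when single arrays were left out. With the replicate block 1 HOX gene was called between the derivatives, none between U87MGR and U87MG, and 1 between U87MGL and U87MG, HOXB6 in both cases.

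Cluster medians moved as follows, in log2 units. For U87MGR against U87MGL, HOXC was -0.068 with no filter and -0.19 with the stricter one, and -0.25 to -0.012 without single arrays; HOXD was 0.075 with no filter, 0.056 with the mean of probe sets and 0.013 to 0.32 without single arrays; HOXB was -0.058 to 0.14 without single arrays. For U87MGR against U87MG, HOXB was 0.060 with the stricter filter, 0.15 with 2 patterns, 0.11 with 3 patterns and within a pattern, and -0.15 to 0.15 without single arrays. HOXC was -0.027 with no filter, -0.093 with the stricter one, -0.11 with 3 patterns and within a pattern, and -0.19 to -0.10 without single arrays. HOXD was -0.15 with the mean of probe sets, -0.21 with 3 patterns and within a pattern, and -0.086 to 0.077 without single arrays. For U87MGL against U87MG, HOXB was 0.18 with 2 patterns. HOXC was -0.029 with no filter, 0.17 with centred arrays, 0.036 with 2 patterns, 0.049 with 3 patterns and -0.016 to 0.20 without single arrays. HOXD was -0.18 with the mean of probe sets, -0.17 with 2 patterns, -0.30 with 3 patterns and -0.22 to 0.17 without single arrays.

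Signs of single genes, none of them called, turned as follows. For U87MGR against U87MGL, HOXB3 and HOXC8 were -0.15 and -0.045 with 2 or 3 patterns, and HOXD13 was -0.061 with the mean of probe sets; without single arrays these ranged from -0.15 to 0.39, -0.065 to 0.17 and -0.043 to 0.48. For U87MGR against U87MG, HOXB6 was 0.16 with 2 patterns and 0.11 with 3, HOXD4 0.092 and 0.44, and HOXC8 0.023 with 3; without single arrays HOXB6 ranged from -0.56 to 0.16 and HOXD4 from -0.44 to 0.26. For U87MGL against U87MG, HOXC6 was -0.12 with 2 patterns and -0.20 with 3, HOXC8 0.068 and HOXD4 0.20 with 3. The dimmer HOXB6 probe set, added after seeing the data, gave -0.14 where the brighter gave 2.44, a call. The cause of these changes was not tested.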
